A study of Homo sapiens with 18 samples.

Results

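The TGF-β, activin and BMP pathway was followed through 49 listed genes of its ligands, receptors, SMAD proteins, inhibitors and direct targets in SKOV-3 cells, an established human ovarian carcinoma line, by Affymetrix U133 Plus 2.0 arrays. The members are a list of gene names, chosen with earlier results of these data known, and for each the brightest probe set on average was used among those that list its symbol alone. Of the 49 genes, 48 were measured among 19752 genes in all, and BMPR1A, a type I BMP receptor without such a probe set, was not analysed here. The 18 arrays formed 6 groups of 3 replicates. LHR- cells lacked the luteinizing hormone receptor (LHR), LHR+ cells had been transfected to express it and received no LH, and LHR+ cells were incubated with LH at 50 ng/ml for 1, 4, 8 or 20 h, written LH1, LH4, LH8 and LH20. The methods name the parent line as the LHR- control and mock transfection is named elsewhere, so effects of transfection and of the receptor cannot be told apart in the LHR+/LHR- comparison. LHR+ cells without LH were a single group, so time in culture and LH cannot be told apart either. The replicates were stated to be independent. In RNA from whole cultures, fewer cells with a transcript and less of it per cell cannot be told apart.

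In this pathway, dimeric ligands bind type I and type II receptor kinases at the cell surface. The TGF-β and activin receptors phosphorylate SMAD2 and SMAD3, the BMP receptors phosphorylate SMAD1, SMAD5 and SMAD9, and both sets join SMAD4 to enter the nucleus. Secreted antagonists such as noggin and follistatin hold ligands away from receptors, the inhibitory SMAD6 and SMAD7 act inside the cell, and the ID genes, which encode inhibitors of basic helix-loop-helix transcription factors, are well-known targets of BMP signals. In the ovary, activins and inhibins, both built from INHBA or INHBB chains, take part in the control of follicle growth and of gonadotropins.

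The 4 ID genes moved together 20 h after LH, so the stretch around each start site is shown, from 250 bases before to 50 bases after it, as RefSeq gives it for GRCh38.p14. All 4 sequences run 5′ to 3′ on the strand of the gene. Capitals mark the motif TATAA, the box CCAAT (printed as ATTGG where it lies on the opposite strand) and the motif TGACG (printed as CGTCA where it lies on the opposite strand), and the capital run of ID1 holds overlapping TATAA matches on both strands.
ID1, chr20:31605039-31605338, plus strand: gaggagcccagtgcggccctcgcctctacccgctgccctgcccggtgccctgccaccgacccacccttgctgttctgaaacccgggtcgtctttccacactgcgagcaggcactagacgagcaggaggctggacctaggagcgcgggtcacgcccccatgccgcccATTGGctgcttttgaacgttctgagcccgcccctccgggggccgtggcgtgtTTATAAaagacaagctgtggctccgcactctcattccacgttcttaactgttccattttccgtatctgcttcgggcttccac
ID2, chr2:8681806-8682105, plus strand: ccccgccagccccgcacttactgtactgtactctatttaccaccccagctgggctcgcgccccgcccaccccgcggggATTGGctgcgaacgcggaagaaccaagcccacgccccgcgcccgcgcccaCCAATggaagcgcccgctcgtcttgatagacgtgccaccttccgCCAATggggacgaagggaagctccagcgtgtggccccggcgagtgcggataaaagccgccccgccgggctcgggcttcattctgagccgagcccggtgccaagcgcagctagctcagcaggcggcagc
ID3, chr1:23559452-23559751, minus strand: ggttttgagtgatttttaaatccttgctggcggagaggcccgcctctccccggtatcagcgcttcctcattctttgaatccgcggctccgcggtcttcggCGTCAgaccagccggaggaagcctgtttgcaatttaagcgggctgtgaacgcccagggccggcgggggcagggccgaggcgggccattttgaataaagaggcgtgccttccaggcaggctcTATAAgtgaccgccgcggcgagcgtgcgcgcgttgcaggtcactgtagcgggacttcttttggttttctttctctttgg
ID4, chr6:19837120-19837419, plus strand: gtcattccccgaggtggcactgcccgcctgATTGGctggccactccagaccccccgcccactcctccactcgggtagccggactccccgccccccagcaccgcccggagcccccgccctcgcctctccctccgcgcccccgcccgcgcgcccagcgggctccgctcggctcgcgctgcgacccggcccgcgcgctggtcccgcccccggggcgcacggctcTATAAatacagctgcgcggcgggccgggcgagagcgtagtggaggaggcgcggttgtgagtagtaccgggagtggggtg

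ID1, ID3 and ID4 each held TATAA within 32 bases before the start, a motif present somewhere in 20.4% of the 35116 RefSeq promoters of this length, and ID2 held none. CCAAT was found 1 time in ID1, 3 times in ID2 and 1 time in ID4, against 34.6% of all promoters with at least 1 match. These motifs were added after the sequences had been seen. TGACG, the core of the cyclic AMP response element, occurred 1 time in ID3, from 150 to 146 bases before the start, and in 24.6% of all promoters. The full element TGACGTCA, which contains TGACG and was held by 1.85% of promoters, and the SMAD box GTCTAGAC, held by 0.202%, were in none of the 4 windows. GGCGCC, another SMAD box, was in 19.2% of promoters and in none of the 4. Of the activin genes, the INHBB window had 3 GGCGCC matches and a GC content of 88.7%, and the INHBA window had no match to these SMAD or cyclic AMP motifs and a GC content of 43.3%. The INHBA window, chr7:41703041-41703340 on the minus strand, lies inside the gene interval chr7:41685114-41705406 and not at its 5′ end. A match is a description of letters and not a binding site.

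The arrays were on a similar scale, with median intensities from 46.9 to 57.9 over all probe sets and 31% to 34.5% of probe sets under an intensity of 16. For 14 of 18 arrays the nearest other array belonged to the same group. The keratins KRT7, KRT8 and KRT18 and MUC1 were over 100 on all 18 arrays, EPCAM lay between 41.6 and 251, and CDH1, which encodes E-cadherin, lay between 11.3 and 60.4. The 6 epithelial markers summed to 15273 to 16812 in LHR+ and to 20502 to 21093 in LH20, and their part in the changes given here was not tested. Immune, endothelial and steroidogenic markers reached at most 32.4 on any array. LHCGR, the gene of the receptor, had 1 probe set, which read 0.196 to 4.11 over all arrays, so this value does not separate LHR+ from LHR- and gives no check of the labels.

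A member was called up or down when 4 criteria held. Its limma p was below 0.05, the Benjamini-Hochberg adjusted p over all 19752 genes was below 0.1, the geometric means differed at least 2-fold, and the 3 arrays of each group did not overlap. A member that met all but the fold criterion is said to have changed at any fold. Log2 fold changes are differences of mean log2(intensity + 1), given with their standard error (SE). In an exact permutation test 3 arrays against 3 cannot give a two-sided p below 0.1, so the p-values rest on the variance model of limma.

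Expression of LHR without LH was accompanied by a higher INHBB signal and a lower BAMBI signal, and otherwise by small changes that were mostly downward. TGFB2, LTBP1, BMPR1B, SMAD2 and SKIL were all lower in LHR+ than in LHR- cells, by 1.33-fold to 1.55-fold. Of 48 members, 1 was called up and 1 down in LHR+/LHR-, where 2.58% and 2.06% of all genes were called. Changes at any fold were upward for 4 members against 9.96% of all genes and downward for 13 members, or 27.1%, against 7.91% of all genes. The median log2 fold change was -0.20 over the members and close to 0 over all genes. As 37 of the 48 members were brighter than the median gene, the share among brighter genes is also given, and of 9876 such genes 11.2% were lower at any fold.

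INHBB, the β-B chain of activin B and inhibin B (chr2:120346136-120351803), read 27.8, 3.07 and 38.4 in LHR- and 83.4, 84.1 and 98.6 in LHR+. All 3 LHR+ arrays lay above all LHR- arrays, and LHR- replicate 2 stood far below the other 2. The log2 fold change was 2.42 ± 0.60 (SE, adjusted p = 0.0147), which became 1.41 without LHR- replicate 2. INHBB stayed dim, at 64.3 to 148 in LH1, LH4 and LH8, and its values of 50.7, 31.9 and 41.2 in LH20 lay below all of those. At LH20 the log2 difference from LHR+ was -1.10 with a 95% interval from -2.40 to 0.19, so it did not pass the test, while LH20 against LH4 was called down at -1.62 (adjusted p = 0.0625).

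BAMBI encodes a pseudoreceptor that resembles a type I receptor but lacks the kinase domain (chr10:28677521-28682932). Its intensities were 3433, 3492 and 3641 in LHR- and 1548, 1633 and 1608 in LHR+. They remained between 1325 and 1755 in LH1, LH4 and LH8, and were 456, 447 and 443 in LH20. The signal thus fell in 2 separate steps, at LHR+ and at LH20, with no overlap between the groups on either side of a step. The log2 fold changes were -1.14 ± 0.08 for LHR+/LHR- (SE, adjusted p = 5.42e-07), -1.83 ± 0.08 for LH20/LHR+ (adjusted p = 6.33e-09) and -1.72 ± 0.08 for LH20/LH8 (adjusted p = 3.32e-08). BAMBI has 1 probe set on the array.

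**Figure D1:**
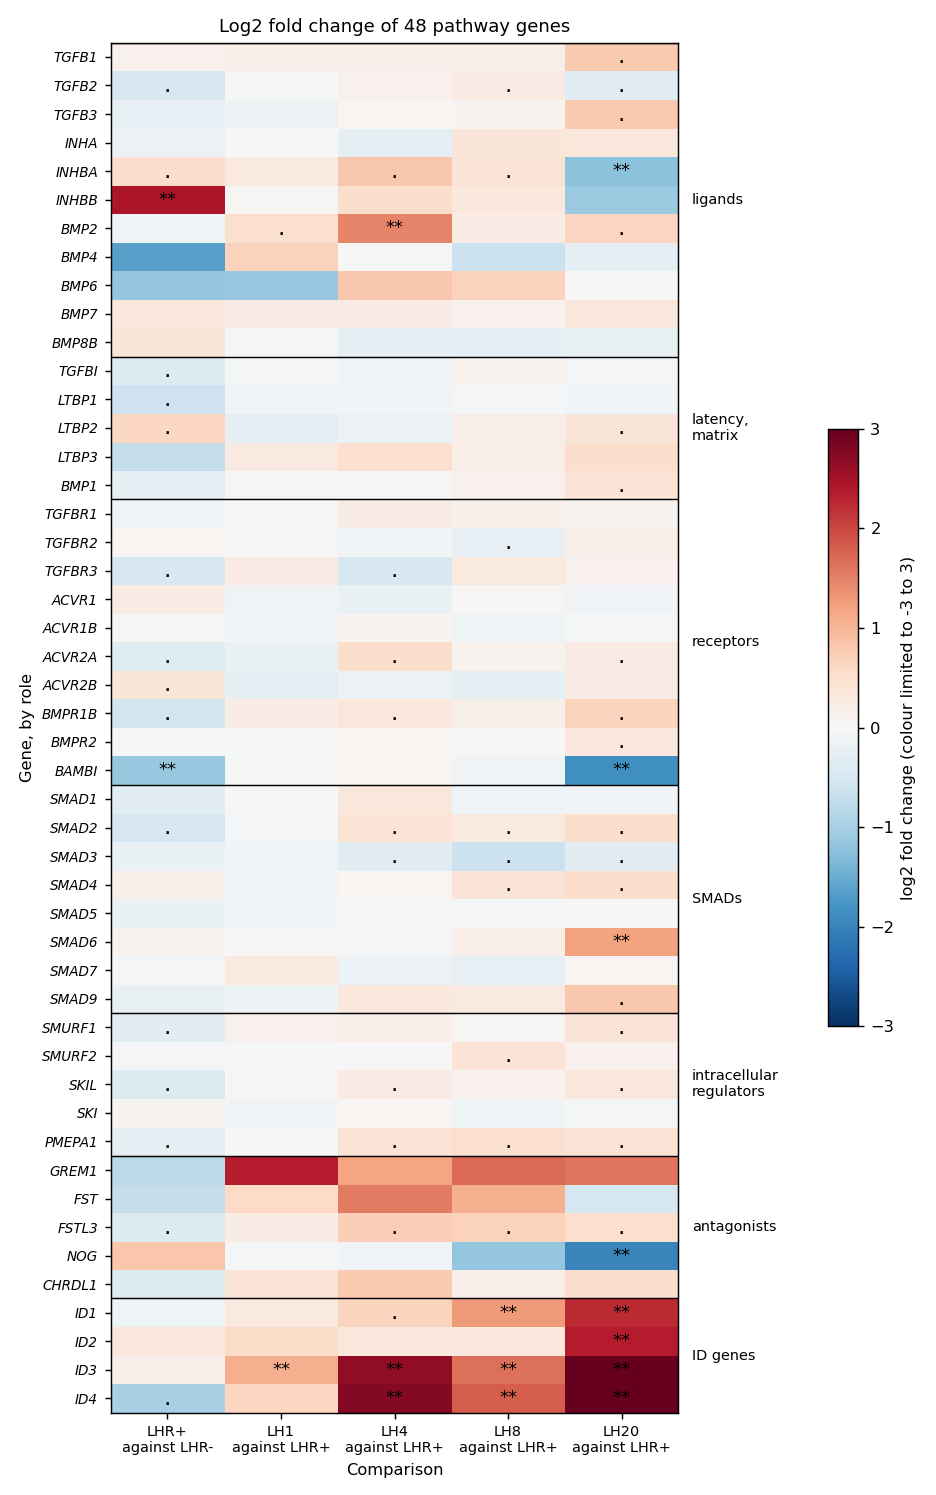
Log2 fold change of the 48 measured members (rows, ordered by role) in LHR+ against LHR- and in each LH time against LHR+ (columns), with red for higher, blue for lower and the colour limited to -3 to 3. A pair of asterisks marks a called member and a dot a change at any fold. The ID genes form a red block at LH20. ID3 and ID4 are also red at LH4 and LH8, while ID2 is pale there, at 0.33 and 0.31. The strong colours of GREM1, BMP4 and FST come from dim values without a call.

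The first hour of LH changed few members. ID3 rose 2.12-fold and BMP2, a BMP ligand, 1.40-fold, and the other 46 members did not pass the test. With 1 member called up and 0 called down (1 down at an unadjusted p under 0.05), the background was 0.299% of all genes called up and 0.0304% called down. At any fold 2 members were up and 0 were down, against 0.567% and 0.314% of all genes. The medians were 0.01 over the members and -0.01 over all genes.

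After 4 h the listed members showed a broader and mostly upward response. ID3, ID4 and BMP2 were called, and INHBA, FSTL3, ID1, ACVR2A, SMAD2, PMEPA1, BMPR1B and SKIL rose at any fold by 1.19-fold to 1.75-fold. SMAD3 and TGFBR3 fell, by 1.27-fold and 1.40-fold. The counts were 3 members called up and 0 down (2 down at an unadjusted p under 0.05), against 1.3% and 0.926% of all genes, and 11 up (22.9%) and 2 down at any fold, against 4.85% and 5.86% of all genes. Among genes brighter than the median gene 7.55% were up at any fold. The median of the members was 0.14.

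At 8 h ID1 joined ID3 and ID4 among the called members, while BMP2 was no longer called. INHBA, FSTL3, PMEPA1 and SMAD2 were still up at any fold, SMURF2, SMAD4 and TGFB2 were also up, and SMAD3 and TGFBR2 were down. The counts were 3 called up and 0 down (4 down at an unadjusted p under 0.05), with 0.992% and 0.729% of all genes called, and 10 up (20.8%) and 2 down at any fold, with 5.08% and 5.63% of all genes. The median of the members was 0.16.

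The 20 h time point held most of the calls. All 4 ID genes and SMAD6 were called up, and BAMBI, NOG and INHBA were called down. A further 15 members, among them TGFB1, TGFB3, SMAD9, BMPR1B, BMP2, SMAD4 and SMAD2, rose at any fold by 1.18-fold to 1.76-fold. SMAD3 and TGFB2 fell, both by 1.25-fold. The counts were 5 called up and 3 down, against 3.83% and 3.88% of all genes, and 20 up (41.7%) and 5 down (10.4%) at any fold, against 15.3% and 17.3% of all genes. Of genes brighter than the median gene 23.5% were up and 28.3% down at any fold. The median of the members was 0.29, against -0.004 over all genes. The comparisons at 1, 4, 8 and 20 h and LHR+/LHR- share the 3 LHR+ arrays and are therefore not independent of each other. FSTL3, ACVR2A, SMAD2, PMEPA1, BMPR1B and SKIL were lower at any fold in LHR+/LHR- and higher at any fold at LH4 and LH20. INHBA was instead higher at any fold both in LHR+/LHR- and at LH4.

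Steps between neighbouring LH times were compared directly. From 1 to 4 h, ID3, ID4 and BMP6 were called up and 0 members down (3 at an unadjusted p under 0.05), with 0.835% and 0.952% of all genes called. From 4 to 8 h, 0 members were called up (6 at an unadjusted p under 0.05) and BMP2 was called down, with 0.658% and 0.648% of all genes. From 8 to 20 h, ID2, ID3, ID4 and SMAD6 were called up and INHBA and BAMBI down, with 2.36% and 2.22% of all genes. Over all 8 comparisons 11 members (22.9%) were called at least 1 time and 37 were not, against 14.5% of all genes called at least 1 time.

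Among the ligands, 11 were measured. INHBA, the β-A chain of activin A and inhibin A (chr7:41685114-41705406), rose early and fell late. It read 2390.4, 2262 and 1908 in LHR-, 3110.2, 2827 and 3556 in LHR+, 3912, 3850.5 and 3784 in LH1, 5209.9, 5765 and 5586 in LH4, 4006, 4343 and 4279.8 in LH8 and 1591, 1231 and 1217 in LH20. The LH4 arrays were the highest and the LH20 arrays the lowest of all groups, and neither overlapped with any other group. Against LHR+ the log2 fold changes were 0.29 at 1 h, 0.81 ± 0.12 at 4 h (SE, adjusted p = 0.000587), 0.42 ± 0.12 at 8 h (adjusted p = 0.0469) and -1.24 ± 0.12 at 20 h (adjusted p = 3.73e-06). The 8 to 20 h step was -1.65 ± 0.12 (adjusted p = 9.84e-07). Before LH, INHBA was 1.45-fold higher in LHR+ than in LHR- (adjusted p = 0.00717).

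The early rise of INHBA was larger on its other probe sets, and the second brightest was also called up in LHR+/LHR-, at 1.06 (adjusted p = 0.000234). With p adjusted over all probe sets of the array, the second brightest INHBA probe set was called up at LH1 with a log2 fold change of 1.07 and at LH4 with 1.64, and the dimmest with 1.19 and 2.19. At LH20 the 3 probe sets, from bright to dim, read -1.24, -1.90 and -0.38 against LHR+, where the last was not called, and all 3 were called down from LH8 to LH20. The size of the early rise therefore depended on the probe set, and the late fall from 8 to 20 h did not lose its call on any.

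BMP2 (chr20:6767686-6780246), a ligand of the BMP receptors, showed a transient peak. It read 559, 472 and 498 in LHR-, 536, 435 and 449 in LHR+, 633, 784 and 581 in LH1, 1369, 1279 and 1249 in LH4, 543, 583 and 537 in LH8 and 759.9, 731 and 738 in LH20. The LH4 arrays stood above all others, and LH8, at 537 to 583, lay just above LHR+ and below most of LH1. The log2 fold change was 1.46 ± 0.11 for LH4/LHR+ (SE, adjusted p = 1.54e-06) and -1.23 ± 0.11 for LH8/LH4 (adjusted p = 3.66e-05). Against LHR+ the value was 0.49 at LH1 (adjusted p = 0.0857), 0.23 at LH8 with a 95% interval from -0.01 to 0.47, and 0.66 at LH20 (adjusted p = 0.000498). The dimmer probe set moved the same way at LH4, by 0.96, without a call.

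BMP6, another BMP ligand (chr6:7726099-7881728), was dim and was called only from LH1 to LH4. It read 90.5, 80.6 and 84.1 in LHR-, 45.6, 40.4 and 27.9 in LHR+, 2.89, 39.1 and 32.2 in LH1, 64.9, 58.7 and 75.7 in LH4, 62.1, 47.8 and 73.3 in LH8 and 42.1, 32.8 and 35.8 in LH20. The LH4 arrays were above the LH1 arrays, with a log2 fold change of 1.95 ± 0.62 (SE, adjusted p = 0.0912). LH1 replicate 1 was far below its group, and without it the value was 0.88 and the call was lost. The call was also lost without LH4 replicate 1, 2 or 3, where the values were 1.97, 2.04 and 1.86, and under a replicate block. The LHR- and LHR+ arrays did not overlap, but the difference of -1.17 did not pass the test (adjusted p = 0.265).

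The TGF-β ligands were not called on their brightest probe sets. TGFB1 read 1017, 920.1 and 726 in LHR+ and 1552, 1484 and 1514 in LH20, a log2 fold change of 0.79 ± 0.17 (SE, adjusted p = 0.00357), and TGFB3 rose by the same 0.79 ± 0.26 (adjusted p = 0.0373) from 96.7 ± 19.1 to 169 ± 46.4 (SD, n = 3). TGFB2 went the other way. It fell from 6887 ± 313 in LHR- to 4895 ± 210.4 in LHR+, lay at 5832 ± 672 in LH8 and reached 3914 ± 167 in LH20 (SD, n = 3), with LH20 below LHR+ by 0.32 on the log2 scale (adjusted p = 0.00847). Another TGFB2 probe set was called down in LH20/LH8, at -1.001. INHA, the inhibin α chain, BMP4 and BMP7 had group means of at most 39.7 and were not called. BMP8B did not pass the test on its brightest probe set, but its second brightest was called up in LHR+, from a mean of 83.4 to 281.

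**Figure D2:**
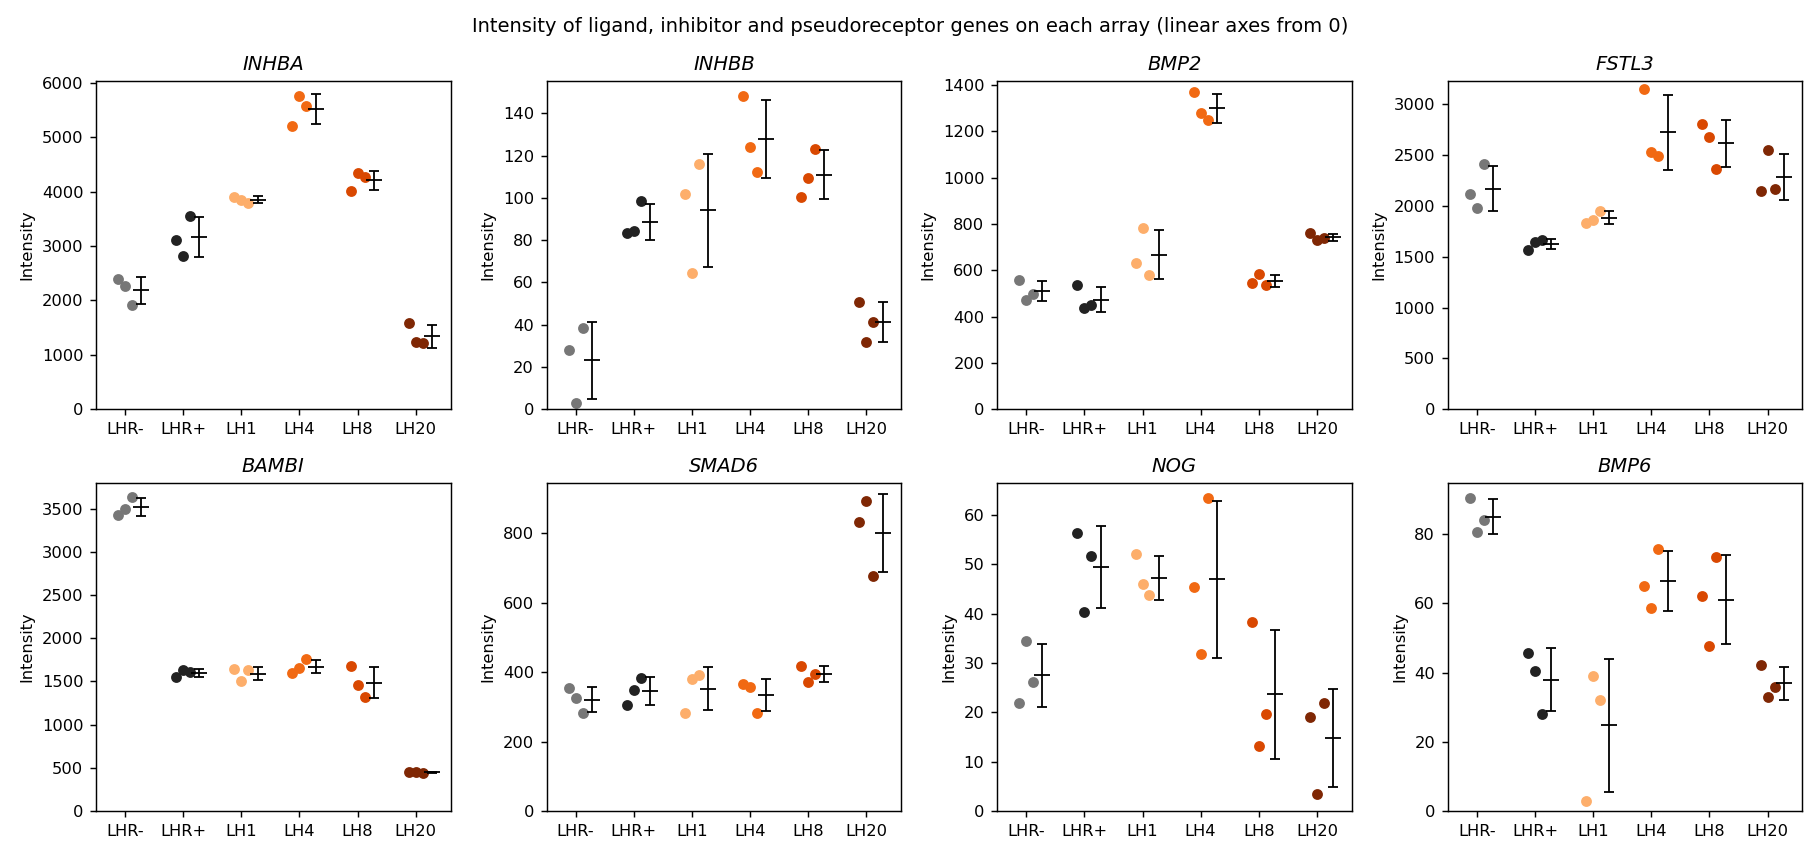
Intensity on each array (points, linear axes from 0) of INHBA, INHBB, BMP2, FSTL3, BAMBI, SMAD6, NOG and BMP6 in the 6 groups, with group mean and SD (n = 3) as bars to the right of the points. INHBA peaked at 5209.9 to 5765 in LH4 and fell to 1217 to 1591 in LH20, and BAMBI dropped at LHR+ and again at LH20.

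Secreted inhibitors moved in different directions. NOG encodes noggin, which binds BMPs (chr17:56593699-56595611). It read 21.8, 34.4 and 26.2 in LHR-, 56.3, 40.3 and 51.7 in LHR+, 52.1, 45.9 and 43.7 in LH1, 45.3, 31.7 and 63.5 in LH4, 38.2, 13.1 and 19.6 in LH8 and 19.1, 3.4 and 21.8 in LH20. All LH20 arrays were below all LHR+ arrays, and LH20 replicate 2 was the lowest. The log2 fold change was -1.98 ± 0.53 (SE, adjusted p = 0.0115), which was -1.22 without that array, and all values were dim.

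FSTL3, a follistatin-like protein that binds activins, rose after LH without reaching 2-fold. The intensities were 2119, 1982 and 2412 in LHR- and 1564, 1645 and 1663 in LHR+. After LH they were 3149.8, 2532 and 2494 in LH4, 2810.3, 2681 and 2360.2 in LH8 and 2145, 2546 and 2167 in LH20. No array of the 3 later times overlapped with LHR+, and the log2 fold changes were 0.74 ± 0.11 (adjusted p = 0.00072), 0.69 ± 0.11 (adjusted p = 0.0016) and 0.49 ± 0.11 (adjusted p = 0.00376). FST, which encodes follistatin itself, was not called on its brightest probe set, at 16.9 ± 9.79 in LHR+ and 46.5 ± 12.5 in LH4 (SD, n = 3). The second brightest FST probe set was called up at LH4, with a log2 fold change of 3.42 and means of 7.21 and 89.3, and again at LH8 with 1.99, and was called down in LHR+/LHR- at -1.39. The BMP antagonist GREM1 and CHRDL1, a chordin-like BMP antagonist, stayed at group means of at most 13.1.

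Of the receptors other than BAMBI, 9 were measured and 0 were called on their brightest probe sets, where 14.5% of all genes were called in at least 1 comparison. An unadjusted limma p under 0.05 was found for a rise in 6 and for a fall in 6 in at least 1 of the 8 comparisons. The share of all genes at this unadjusted p was not computed. Ratios of the highest to the lowest group mean ran from 1.16 in ACVR1B, an activin type I receptor, to 1.96 in TGFBR3, the co-receptor betaglycan. TGFBR3 was 345 ± 43.6 in LH4 against 482 ± 48.8 in LHR+ and 588 ± 32.5 in LH8 (SD, n = 3), and the rise from 4 to 8 h was 0.77 ± 0.13 on the log2 scale (adjusted p = 0.00368). The activin type II receptor ACVR2A read 1097, 1231 and 1183 in LHR+ and 1669, 1730.0 and 1618 in LH4, a log2 fold change of 0.52 (adjusted p = 0.0057). BMPR1B, a type I BMP receptor, was lower in LHR+ than in LHR- by 0.55 on the log2 scale (adjusted p = 0.00217) and was up by 0.66 in LH20 (adjusted p = 0.000194). TGFBR1, the type I TGF-β receptor, was at 2885 to 3391 in all group means and passed the test in none of the 8 comparisons on its brightest probe set. Of its 2 dimmer probe sets, 1 was called up in LHR+/LHR- at 1.16, and the dimmest, with group means of at most 17.7, was called down at -1.54 in LH20/LHR+ and at -1.91 in LH20/LH8.

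Of the 8 SMAD genes 1, SMAD6, was called, where 14.5% of all genes were called in at least 1 of the 8 comparisons. SMAD6 encodes an inhibitory SMAD that acts mainly on BMP signals (chr15:66702236-66782849). It read 355, 324 and 282 in LHR-, 304, 349 and 384 in LHR+, 281, 381 and 393 in LH1, 367, 356 and 282 in LH4, 419, 372 and 394 in LH8 and 833, 894 and 676 in LH20. The LH20 arrays stood above all the others, which lay between 281 and 419. The log2 fold change was 1.21 ± 0.16 for LH20/LHR+ (SE, adjusted p = 5.88e-05) and 1.01 ± 0.16 for LH20/LH8 (adjusted p = 0.000491). Of its 4 probe sets 1 was called at LH20/LHR+, the other values being 0.65, -0.03 and 0.78, and with the mean of all 4 the value was 0.65 and the call was lost. The LH20/LH8 call lay at the fold criterion and was lost without LH8 replicate 2, LH20 replicate 1 or LH20 replicate 2, where the values were 0.97, 0.98 and 0.93.

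The receptor-regulated SMADs moved in different directions. SMAD3, which carries TGF-β and activin signals, read 2431, 2497 and 2467 in LHR+, 1912, 1977 and 1935 in LH4, 1621, 1557 and 1536 in LH8 and 1887, 1863 and 2187 in LH20. It was lower than LHR+ on every array of the 3 later times, with log2 fold changes of -0.35, -0.65 and -0.32 ± 0.08 (adjusted p = 0.0136, 0.000172 and 0.00636). SMAD2, of the same branch, rose at 4, 8 and 20 h by 0.42, 0.28 and 0.54 ± 0.09 (adjusted p = 0.0118, 0.095 and 0.000549). Its group means were 3149 in LHR-, 2222 in LHR+ and 3226 in LH20.

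SMAD9, of the BMP branch, read 624, 605 and 571 in LHR+ and 1052, 1072 and 1051 in LH20, a log2 fold change of 0.82 ± 0.13 (adjusted p = 0.000247), whereas SMAD1 and SMAD5 did not pass the test against LHR+ at any time. SMAD4, the common partner, went from 1219 ± 91.6 in LHR+ to 1772 ± 125 in LH20 (SD, n = 3; adjusted p = 0.00344). The inhibitory SMAD7 lay between group means of 746 and 1082 and did not pass the test against LHR+ at any time.

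The proteins of latency and matrix and the intracellular regulators gave 0 calls over 10 genes on their brightest probe sets. Of all genes 14.5% were called in at least 1 of the 8 comparisons, so 0 of 10 is not read as a result about these genes. An unadjusted limma p under 0.05 was found for a rise in 7 and for a fall in 8 of the 10 in at least 1 comparison. The matching share of all genes was not computed. LTBP1 and LTBP2 encode latent TGF-β binding proteins, and they differed in opposite directions in LHR+/LHR-, with LTBP1 at -0.63 ± 0.08 (adjusted p = 0.000205) and LTBP2 at 0.62 ± 0.13 (adjusted p = 0.0048). TGFBI, a secreted matrix protein induced by TGF-β, was lower in LHR+ by 0.42 on the log2 scale (adjusted p = 0.0113). BMP1, a metalloproteinase and not a BMP ligand, was up by 0.41 in LH20 (adjusted p = 0.00891), and the next 2 of its probe sets by brightness were called up there at 1.17 and 1.42.

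PMEPA1, a TGF-β-induced membrane protein that restrains SMAD signals, was higher in LH4, LH8 and LH20 than in LHR+ by 0.41, 0.48 and 0.41 ± 0.08 (adjusted p = 0.00365, 0.00125 and 0.000905). SKIL, a SMAD corepressor, had means of 6419.6 in LHR-, 4815 in LHR+, 5710.3 in LH4 and 6098 in LH20, and SKI, the related corepressor, changed by a ratio of at most 1.15 between group means. The ubiquitin ligase SMURF2 was up in LH8 by 0.41 (adjusted p = 0.00337) and SMURF1 in LH20 by 0.39 (adjusted p = 0.011). A dimmer SMURF1 probe set was called up at LH8 and LH20, with 1.20 at LH20.

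The ID genes carried the largest called changes of the members after LH. At LH20 they were 4.73-fold, 5.09-fold, 10.6-fold and 12.5-fold above LHR+ for ID1, ID2, ID3 and ID4, and the first time with a call differed. Against LHR+, ID3 was called from 1 h, ID4 from 4 h, ID1 from 8 h and ID2 at 20 h, and whether the courses differed was not tested. In the promoters printed above, TATAA lay near the start of ID1, ID3 and ID4 and not of ID2, which is a description of the sequences alone.

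ID3 (chr1:23557926-23559501) read 333, 228 and 260.4 in LHR-, 344, 281 and 279 in LHR+, 493, 673 and 781 in LH1, 2209, 2014 and 1512 in LH4, 929, 913 and 1016 in LH8 and 3624, 2716 and 3306 in LH20. Every LH array was above every LHR+ and LHR- array, and LH8 lay between LH1 and LH4 without overlap. The log2 fold changes against LHR+ were 1.09, 2.65, 1.66 and 3.41 ± 0.19 at 1, 4, 8 and 20 h (SE, adjusted p = 0.0168, 1.09e-06, 0.00015 and 4.33e-08). From 4 to 8 h ID3 fell by 0.99 on the log2 scale (adjusted p = 0.00879), just under the fold criterion. The call at 1 h was lost without LH1 replicate 3, where the value was 0.94.

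ID4 (chr6:19837370-19842197) also had a first peak at 4 h. Its intensities were 204, 154 and 272 in LHR-, 123, 88.2 and 104 in LHR+, 157, 209 and 135 in LH1, 788, 838 and 546 in LH4, 339, 356 and 409 in LH8 and 1313, 1258 and 1381 in LH20. LHR+ was the lowest group, below all LHR- arrays at -0.97 ± 0.22 (SE, adjusted p = 0.00885) and just short of 2-fold. The log2 fold changes were 2.76, 1.81 and 3.65 ± 0.22 at 4, 8 and 20 h (adjusted p = 2.29e-06, 0.000202 and 6.76e-08), and 0.65 at 1 h with a 95% interval from 0.18 to 1.12. All LH1 arrays were above all LHR+ arrays, but this difference did not pass after adjustment. From 4 to 8 h ID4 fell by 0.95 (adjusted p = 0.0221). Of its 5 probe sets 3 were called up at LH4, LH8 and LH20, and the 2 without a call were dim. At LH8, 4 of the 5 were above LHR+.

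ID1 (chr20:31605289-31606510) read 528, 478 and 602 in LHR-, 539, 472 and 453 in LHR+, 607, 584 and 604 in LH1, 1042, 727 and 611 in LH4, 1214, 1078 and 1229 in LH8 and 2403, 2133 and 2388 in LH20. The group means increased with each time and the LH4 arrays were the most spread. The log2 fold changes were 0.67, 1.27 and 2.24 ± 0.16 at 4, 8 and 20 h (SE, adjusted p = 0.017, 0.000226 and 2.63e-07). ID1 did not dip from 4 to 8 h, where it rose by 0.60 (adjusted p = 0.0415).

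ID2 (chr2:8682056-8684461) read 92.7, 97.6 and 82.4 in LHR-, 128, 109 and 109.6 in LHR+, 147, 203 and 164 in LH1, 153, 174 and 113 in LH4, 122, 162 and 148 in LH8 and 610.1, 504 and 665 in LH20. LH20 stood above every other array, while LH1, LH4 and LH8 overlapped. The log2 fold change was 2.35 ± 0.17 at 20 h (SE, adjusted p = 4.42e-07) and 2.04 ± 0.17 from 8 to 20 h (adjusted p = 4.43e-06). At 8 h the difference from LHR+ was 0.31 with a 95% interval from -0.06 to 0.68. Its other probe set gave 3.07 at 20 h and, unlike the brighter one, was called at 4 h with 1.04.

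**Figure D3:**
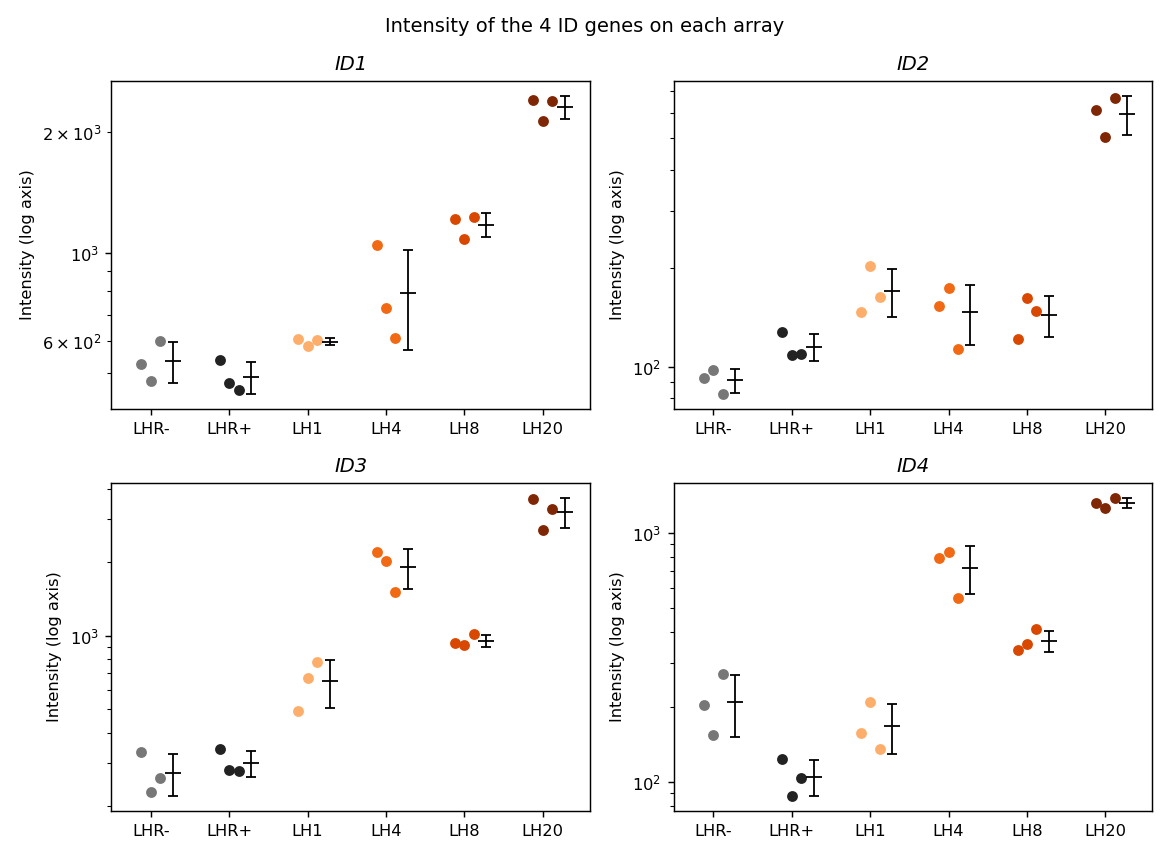
Intensity of ID1, ID2, ID3 and ID4 on each array (points, log axes) in LHR-, LHR+ and after 1, 4, 8 and 20 h of LH, with group mean and SD (n = 3) as bars to the right of the points. All 4 genes are highest in LH20, ID3 and ID4 have an earlier peak in LH4, and ID2 lies between 113 and 203 in LH1, LH4 and LH8.

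**Figure D4:**
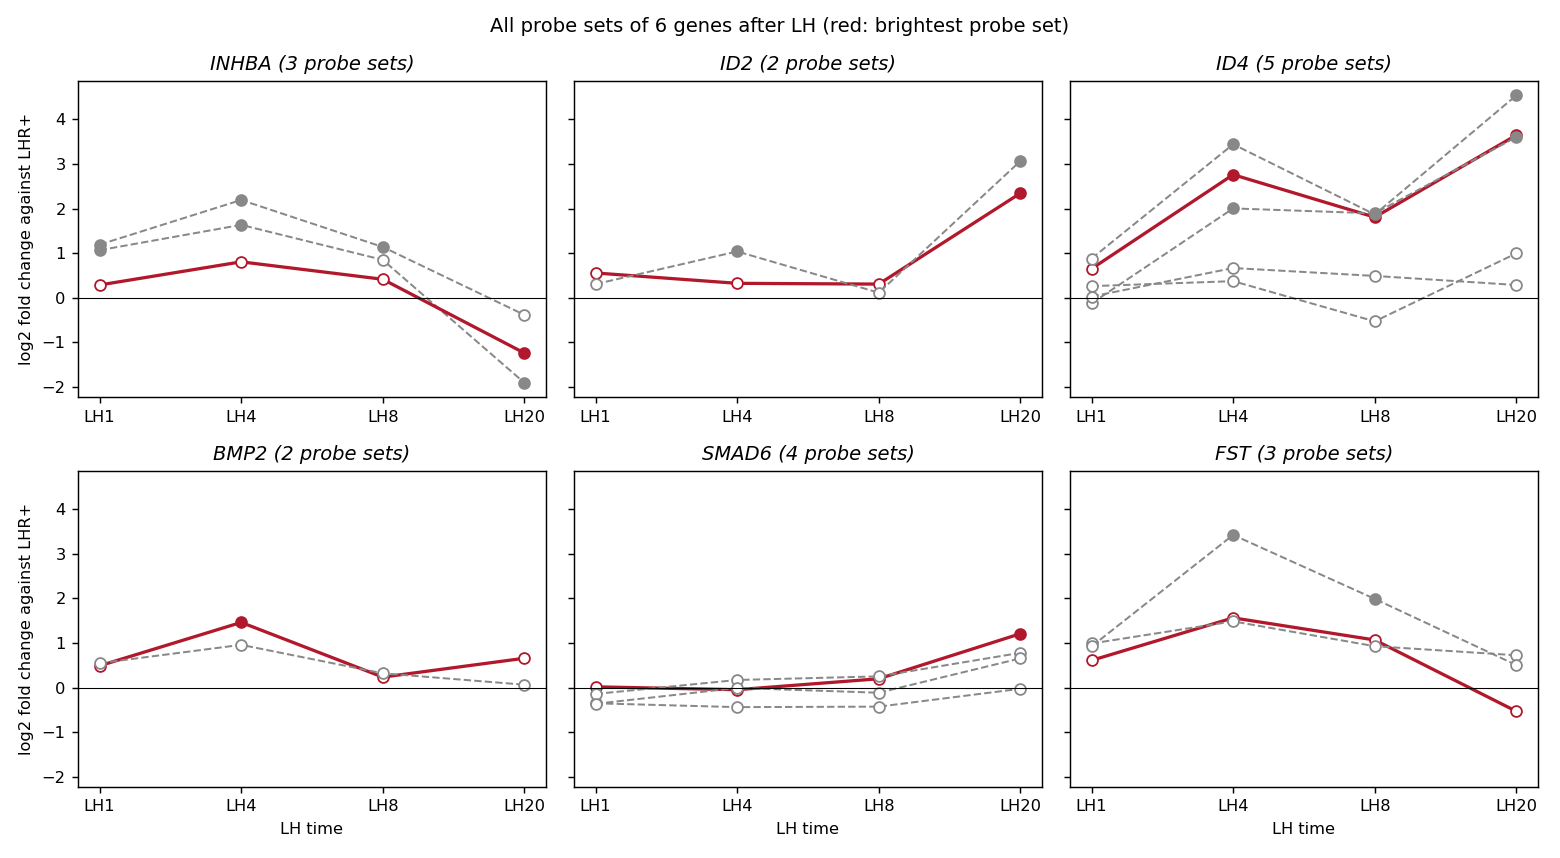
Log2 fold change against LHR+ (vertical axis) at each LH time for every probe set of INHBA, ID2, ID4, BMP2, SMAD6 and FST, with the brightest probe set in red and the others in grey. Filled points were called, with p adjusted over all probe sets. INHBA probe sets share the shape with different heights, and SMAD6 has 1 filled point among its 4 probe sets.

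Other genes of the pathway outside the 49 were counted from 4 lists of ligands, receptors, modulators and intracellular regulators, of which 64 genes were measured. In LHR+/LHR- 1 was called up (1.56%) and 4 down (6.25%), against 2.58% and 2.06% of all genes. At LH20 3 were up (4.69%) and 2 down (3.12%), near the 3.83% and 3.88% of all genes. At LH4 0 were up (7 at an unadjusted p under 0.05) and 1 down, and at LH8 1 up and 1 down, which is 1.56% for each single gene, against 0.729% to 1.3% of all genes in these directions. At LH1 0 were called by limma. At LH1 4 of them were up and 2 down at an unadjusted p under 0.05. The median of the 64 was 0.15 at LH20. At any fold 7.81% of the 64 were up and 4.69% down at LH4, against 4.85% and 5.86% of all genes. At LH20 20.3% were up and 7.81% down at any fold, against 15.3% and 17.3% of all genes. Both shares of rises were below those of the members, which were 22.9% and 41.7%. Brightness was not matched between these sets, and dim genes pass the test less easily. Both sets were chosen with earlier results of these data known, so this difference is a description. Most of the calls were on ligands.

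INHBE, the activin β-E chain, read 2794, 2694 and 2458 in LHR-, 589, 702 and 615 in LHR+, 198, 213 and 209.5 in LH4 and 134, 120.3 and 126 in LH20. It fell by 2.06 on the log2 scale in LHR+/LHR- (adjusted p = 3.2e-07) and by 2.32 in LH20/LHR+ (adjusted p = 6.02e-08). GDF15, a distant member of the TGF-β family, went down in the same comparisons, from a mean of 867 ± 191 in LHR- to 276 ± 64.4 in LHR+ and 50.6 ± 26.9 in LH20 (SD, n = 3). The 2 falls were by 1.65 (adjusted p = 0.0127) and by 2.57 (adjusted p = 0.00024).

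MSTN, which encodes myostatin, and DCN, which encodes the TGF-β-binding proteoglycan decorin, fell in LHR+ and returned at 20 h. MSTN means were 96.6 in LHR-, 26.6 in LHR+ and 112 in LH20, and DCN means were 85 in LHR-, 16.8 in LHR+ and 163 in LH20. At LH20 the log2 fold changes were 2.08 ± 0.39 for MSTN (adjusted p = 0.00108) and 3.20 ± 0.34 for DCN (adjusted p = 1.04e-05). GDF7, a BMP-type ligand, was called up in LHR+/LHR- at 1.12 (adjusted p = 0.000123), and TLL1, a BMP1-like proteinase, was called up at LH20 from values of at most 35.9.

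Of 23 measured genes listed as SMAD targets, 9 are also members of the pathway set described above. In LHR+/LHR- 0 were called up and 4 down, against 2.58% and 2.06% of all genes, and at LH20 7 were called up and 1 down, against 3.83% and 3.88%. The medians were -0.22 and 0.58. The list was written with earlier results of these data known, so the counts are a description. They include calls of the 9 shared genes, which are also in the counts of the members, so the 2 sets of counts are not separate. CCN2, the matricellular connective tissue growth factor, read 1938, 2169.7 and 1711 in LHR- and 658, 687 and 607 in LHR+. It peaked in the first hour at 5968, 5667 and 6251 and had fallen to 908 to 1085 in LH20, still above all LHR+ arrays. COL1A2, a chain of type I collagen, read 7153, 7193 and 7099 in LHR-, 1096, 1160.1 and 1009 in LHR+ and 4001, 4314 and 4224 in LH20. The transcription factor SNAI1 was called up at LH4 with a log2 fold change of 1.56 (adjusted p = 0.000486), and TIMP3, a metalloproteinase inhibitor, fell by 4.25 in LHR+/LHR- and regained 0.69 in LH20. Among the LH times the highest group mean was at 1 h for CCN2, at 4 h for SNAI1 and at 20 h for COL1A2.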

How the data were processed

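RNA from 18 SKOV-3 cultures was amplified as cDNA and hybridized to Affymetrix U133 Plus 2.0 arrays. The values used are linear intensities of 54675 probe sets, 1 column per array, as deposited by the authors, whose labels name PLIER and whose methods name RMA for the summarization. Versions and background settings are not given in the sources used here, and depth has no meaning for arrays, so the 3 arrays per group limit the precision. In the annotation 41097 probe sets list 1 symbol, 1801 several and 11777 none. By Entrez ID 41043 matched the RefSeq table of GRCh38.p14, which updated 43 symbols and gave the coordinates. Only probe sets with 1 symbol were used, and the brightest stood for each of 19752 genes.

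Intensities were taken as log2(value + 1) without further scaling or filter, and 1 mean per group was fitted to the 18 arrays together (limma 3.58.1, R 4.3.3). The thresholds are those of the methods, and limma took the place of their tests. Python 3.11.15 and matplotlib 3.10.9 made the figures. The members and gene lists were chosen with earlier results of these data known. Members called in at least 1 of 8 comparisons were named with their values, the others by role, and of other pathway genes at most 10 called genes with the largest change. Dimmer probe sets, and the members outside the calls given with array values, were picked after their values had been seen. The replicate numbers were not used to pair the arrays in the main fit. Deviations of 45 same-numbered pairs correlated between -0.02 and 0.05 over all genes, and those of other pairs between -0.06 and 0.05. Dim genes were included, so a small effect shared by a replicate number could go unseen. On simulated data for LH4/LHR+ with 19752 genes and independent normal noise, 15, 30, 40 and 42 of 50 genes were recovered at folds of 2, 3, 5 and 10. There, 9 of 19552 unchanged genes were called. A true fold of 2 lies at the fold criterion, so many such genes miss it whatever their spread. Alternatives were another offset, a filter on low values, 2 other scalings, the mean of all probe sets, a replicate block, a fit of the 2 groups alone, the methods' analysis of variance, no fold threshold and leaving out each array.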

Additional observations from a re-analysis of the deposited data

Results flagged for a closer look

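INHBA was up against LHR+ at 4 and 8 h of LH and down at 20 h, so the difference between times was tested directly in the same limma fit. LH20 was below LH4 by a log2 fold change of -2.05 ± 0.12 (SE, adjusted p = 8.75e-08) and below LH8 by -1.65 ± 0.12 (SE, adjusted p = 9.84e-07). All 3 arrays of LH20 lay below all 3 arrays of LH4 and of LH8. This separation follows from LH4 and LH8 lying above LHR+ and LH20 below it, for which INHBA was flagged.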

How the results depend on the processing

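Members called in LHR+/LHR-, LH1, LH4, LH8 and LH20 against LHR+, LH4/LH1, LH8/LH4 and LH20/LH8 numbered 2, 1, 3, 3, 8, 3, 1 and 6. Without a fold threshold they were 17, 2, 13, 12, 25, 13, 10 and 22. Leaving out single arrays gave 2 to 3, 0 to 1, 3 to 3, 3 to 3, 8 to 8, 2 to 4, 1 to 3 and 5 to 7, and the replicate block 2, 1, 3, 3, 8, 2, 1 and 7, where BMP6 lost its call. In LH8/LH4 the count of 3 came without LH4 replicate 3 or LH8 replicate 3. For LH1, 0 members were called with equal array medians, with the 2 groups alone and with the methods' analysis of variance, where ID3 was at 0.99, 1.09 and 1.09. With the mean of all probe sets LH4 had 5 called and LH8/LH4 had 0, with BMP2 at -0.93. INHBB, NOG and BMP6 lost their calls in the fit of 2 groups and in the analysis of variance, and BMP6 also with the mean of probe sets and in 4 of 6 fits without an array. SMAD6 in LH20/LH8 was at 0.98 with an offset of 16, 0.95 with equal medians and 0.68 with the mean of probe sets, and lost its call in 3 of 6 fits without an array. The filter on low values removed NOG. Equal medians moved the median of all genes to -0.10 at LH1 and to 0.11 at LH8/LH4, and otherwise by less than 0.1. Over the called members' values 353 kept direction and call, 24 lost the call and 0 reversed. The replicate block, the fit of 2 groups, the analysis of variance and the absence of a fold threshold leave the fold change as it was. A reversal could not occur in these settings. The causes of lost calls were not tested. Values under 16 are near the lower end of the arrays' range, so folds of INHBB, NOG, BMP6 and FST are imprecise.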
